A study of Heterocephalus glaber with 2 samples.

Results

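The catenins were found by gene name among the 37520 genes listed for NSFs, the skin fibroblasts of the naked mole-rat (NMR), and 8 of the 9 names in the family matched. They are *Ctnnb1*, which encodes β-catenin, its close relative *Jup* (plakoglobin, or γ-catenin), the α-catenins *Ctnna1*, *Ctnna2* and *Ctnna3*, the α-catenin-like gene *Ctnnal1*, and the δ-catenins *Ctnnd1* (p120-catenin) and *Ctnnd2*. The remaining name, *Ctnnbip1*, which encodes a small inhibitor of the binding of β-catenin to TCF factors, was not analysed here. The members are matched by gene name, but the family was chosen with earlier results of these data known. RNA-seq was performed on 1 library of *shβ-catenin* NSFs and 1 library of *shControl* NSFs, to ask how β-catenin affects the cholesterol-rich lipid droplets of these cells. The *shβ-catenin* cells carried hairpin 1 against *β-catenin* in a pLKO1 lentivirus, and the *shControl* cells carried the empty vector, which expresses no hairpin. Both were primary adult NMR fibroblasts selected with puromycin and replated before RNA extraction.

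Catenins link cadherins, the adhesion receptors between cells, to the actin cytoskeleton. β-catenin or plakoglobin binds the cadherin tail and recruits α-catenin, which binds actin, while p120-catenin binds nearer the membrane and keeps cadherins at the cell surface. β-catenin has a second role as the transcriptional co-activator of the Wnt pathway, in which a destruction complex degrades it unless a Wnt signal arrives.

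Levels are FPKM, the fragments scaled for transcript length and for the size of the library, so they can be set side by side between genes of different length. With 1 library per condition the spread between replicates is unknown and nothing could be tested; the number of fragments behind each value is unknown too. Log2 fold-changes are *shβ-catenin* over *shControl* after adding 0.1 FPKM to both values, which understates the change of low genes, and plain folds are ratios of the deposited FPKM. The counts below cover the 13097 genes averaging 1 FPKM or more over both libraries, and 2-fold and 4-fold are used as limits of size. A bulk level cannot tell fewer cells of a type from less RNA per cell.

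The label of fibroblasts was checked against marker genes, of which 12 of 14 averaged 1 FPKM or more. Of these 12, 9 were lower and 3 higher in *shβ-catenin* cells, beside 51.3% lower among the 13097 genes. The 3 higher were *Fn1*, at 1957 FPKM in *shβ-catenin* and 1089 FPKM in *shControl* cells, *Fap* (7.93 and 3.69) and *Dcn* (2.42 and 0.316). *Dcn* averaged 1 FPKM or more only through the *shβ-catenin* library, so its being higher is tied to how it entered this count. *Vim*, which encodes vimentin, was listed at 2804 FPKM in *shβ-catenin* and 3363 FPKM in *shControl* cells, and the collagen gene *Col1a1* at 856 and 1258 FPKM in the same order, whereas *Thy1* was low at 1.395 and 0.303 FPKM. The epithelial genes *Krt5* and *Krt1* were listed at 0 in both libraries and *Cdh1* (E-cadherin) at 0.0179 FPKM in *shβ-catenin* and 0 in *shControl* cells, whereas the keratin gene *Krt18* stood at 7.21 FPKM in *shβ-catenin* and 22.6 FPKM in *shControl* cells. The summed FPKM of 8 leukocyte markers was 159 in *shβ-catenin* and 55.1 in *shControl* cells, with the pan-leukocyte gene *Ptprc* at 0 in both. Nearly all of that sum was *Lyz* (lysozyme), at 127 FPKM in *shβ-catenin* and 41.5 FPKM in *shControl* cells, and the lysosomal gene *Cd68*, at 31.1 and 11.9 FPKM in the same order. Both were more than 2-fold higher, as were 3.27% of the 13097 genes. The summed FPKM of 8 keratinocyte and epithelial markers was 7.65 in *shβ-catenin* and 22.6 in *shControl* cells, nearly all of it *Krt18*. That of 13 neuron and glia markers was 105 in *shβ-catenin* and 104 in *shControl* cells, most of it the tubulin gene *Tubb3* (85.0 and 82.2 FPKM in the same order), so the even sum says little about the others. Of the 6 that averaged 1 FPKM or more, *Tubb3* included, 3 were higher and 3 lower, beside 51.3% lower among the 13097 genes. The sum of 6 melanocyte markers was 20.9 FPKM in *shβ-catenin* and 16.5 FPKM in *shControl* cells, with 4 averaging 1 FPKM or more. That of 8 muscle markers was 25.8 and 18.8 FPKM in the same order, most of it *Actc1* (21.4 and 14.2 FPKM). That of 6 endothelial markers was 2.47 and 0.342 FPKM, most of it *Pecam1* (2.08 and 0.275 FPKM). The part of other cell types in the catenin values was not tested.

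*Ctnnb1*, the gene targeted by the hairpin, was listed at 69.0 FPKM in *shβ-catenin* NSFs, against 530.5 FPKM in *shControl* NSFs. The *shβ-catenin* library thus held 13.01% of the *shControl* level, a 7.69-fold lower value and a log2 fold-change of −2.94. Its rank among all genes was 1271 in *shβ-catenin* and 168 in *shControl* cells. The remaining level was still high among the 13172 genes that reached 1 FPKM in the *shβ-catenin* library. Of 888 genes with at least 100 FPKM in *shControl* cells, 14 were more than 2-fold lower in *shβ-catenin* cells and 3 more than 4-fold lower, *Ctnnb1* among them. Genes entered this set by their *shControl* level alone, and *Ctnnb1*, the target, only through that library. The count thus says nothing about how unusual its lower level was. Closeness to *Ctnnb1* on the plane of both log2 levels was ranked without genes known only by a locus number, which can lie nearer. Among the rest, the 3 nearest were *Col6a1*, a collagen VI chain (log2 fold-change −1.07, distance 1.34), *Psat1*, an enzyme of serine synthesis (−1.41, distance 1.34) and *Ccnd1*, which encodes cyclin D1 (−1.01, distance 1.37). These 3 genes were picked by closeness to both *Ctnnb1* values, so their lower levels in *shβ-catenin* cells are tied to that choice. The closeness rests on only 2 libraries.

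*Jup* encodes the relative that can take the place of β-catenin on cadherins and that also anchors desmosomes. It was listed at 93.2 FPKM in *shβ-catenin* NSFs and 108 FPKM in *shControl* NSFs, a log2 fold-change of −0.22. *Jup* was thus not listed higher in the library with less *Ctnnb1*. *Ctnnb1* was listed at 0.741 times the level of *Jup* in *shβ-catenin* cells and at 4.89 times in *shControl* cells. Of the summed FPKM of *Ctnnb1* and *Jup*, *Ctnnb1* made up 42.5% in *shβ-catenin* and 83.0% in *shControl* cells.

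*Ctnna1*, the α-catenin found in most tissues, was close to even, with 103 FPKM in *shβ-catenin* and 111 FPKM in *shControl* cells (log2 fold-change −0.11). *Ctnna2*, the α-catenin of the nervous system, was listed at 0.508 FPKM in *shβ-catenin* NSFs, against 2.18 FPKM in *shControl* NSFs. It was the only member besides *Ctnnb1* that passed 2-fold. The plain ratio was 4.28-fold lower, but the log2 fold-change was −1.90 with a pseudocount of 0.1, −2.08 with 0.01 and −1.07 with 1 FPKM, so whether it passed 4-fold depended on the pseudocount. Its low level also meant that the α-catenin RNA was almost all *Ctnna1*, which exceeded *Ctnna2* 203-fold in *shβ-catenin* and 51.0-fold in *shControl* cells. *Ctnna3*, an α-catenin of heart and testis, was listed at 0.307 FPKM in *shβ-catenin* and 0.308 FPKM in *shControl* cells, below the filter and even between the libraries. *Ctnnal1*, whose product resembles α-catenins, was the only member listed higher, with 9.83 FPKM in *shβ-catenin* and 8.27 FPKM in *shControl* cells (log2 fold-change 0.25).

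*Ctnnd1*, the main δ-catenin of these cells, was listed at 30.4 FPKM in *shβ-catenin* and 36.4 FPKM in *shControl* NSFs (log2 fold-change −0.26). *Ctnnd2*, best known from neurons, was listed at 2.55 FPKM in *shβ-catenin* and 3.87 FPKM in *shControl* NSFs (−0.58). Both were on the lower side without passing 2-fold. *Ctnnd1* exceeded *Ctnnd2* 11.9-fold in *shβ-catenin* and 9.41-fold in *shControl* cells.

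**Figure D1:**
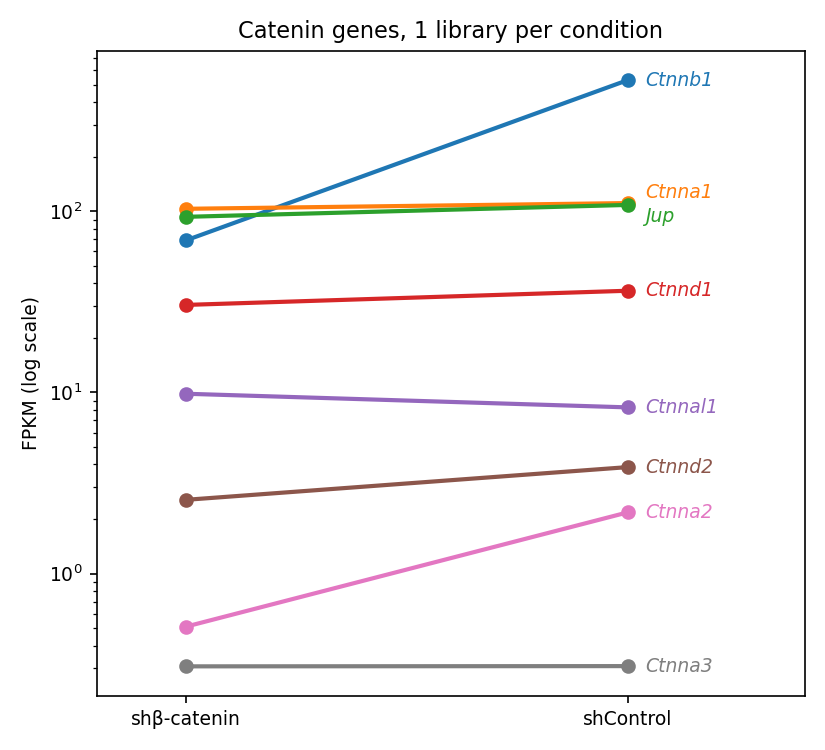
FPKM (log axis) of the 8 catenin genes in the *shβ-catenin* library (left) and the *shControl* library (right), 1 library per condition; a line joins the values of a gene. *Ctnnb1* stands at 69.0 and 530.5 FPKM and *Ctnna2* at 0.508 and 2.18 FPKM. The other 6 genes stay within 2-fold, *Ctnnd2* (2.55 and 3.87 FPKM) being the least level of them.

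In *shβ-catenin* cells the order of levels was *Ctnna1*, *Jup*, *Ctnnb1*, *Ctnnd1*, *Ctnnal1*, *Ctnnd2*, *Ctnna2* and *Ctnna3*. In *shControl* cells *Ctnnb1* stood first and the rest followed in the same order. With no replicates, neighbors such as *Ctnna1* and *Jup* cannot be said to differ. *Ctnnb1* made up 22.3% of the summed FPKM of the 8 genes in *shβ-catenin* and 66.2% in *shControl* cells. *Ctnna1* made up 33.4% and *Jup* 30.2% of the sum in *shβ-catenin* cells, against 13.9% and 13.5% in *shControl* cells. The sum was 309 FPKM in *shβ-catenin* and 801 FPKM in *shControl* cells. Nearly all of this gap was *Ctnnb1* itself, since the other 7 genes summed to 240.04 FPKM in *shβ-catenin* and 271 FPKM in *shControl* cells. *Ctnnb1* was listed at 0.669 times the level of *Ctnna1* in *shβ-catenin* and 4.78 times in *shControl* cells, whereas *Jup* was at 0.903 and 0.977 times and *Ctnnd1* at 0.295 and 0.328 times, again *shβ-catenin* before *shControl*.

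**Figure D2:**
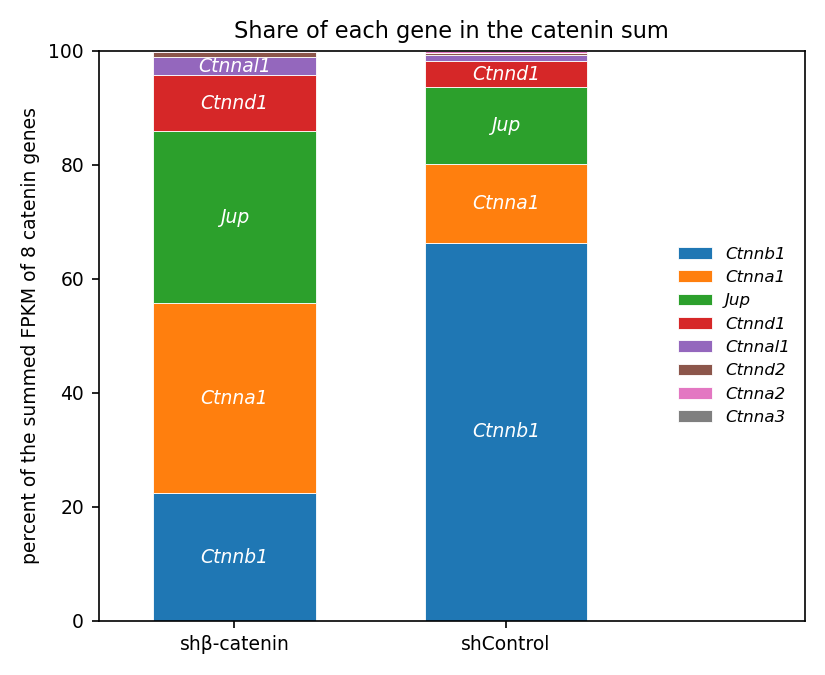
Share of each gene in the summed FPKM of the 8 catenin genes, in percent, in the *shβ-catenin* library (left) and the *shControl* library (right). *Ctnnb1* takes 22.3% of the *shβ-catenin* bar and 66.2% of the *shControl* bar.

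The members were set beside all genes. Of the 7 members that passed the filter of 1 FPKM, 6 were lower in *shβ-catenin* cells, against 51.3% of all genes, and 1 was higher. By more than 2-fold 2 were lower (2.05% of all genes) and none higher (3.27% of all genes). By more than 4-fold 1 was lower (0.206% of all genes) and none higher (0.68% of all genes). *Ctnnb1* was the target of the hairpin, so its place in these counts was set by the design. *Ctnna2*, at 0.508 FPKM in *shβ-catenin* and 2.18 FPKM in *shControl* cells, reached the filter only through the *shControl* library. Its being lower is therefore tied to how it entered these counts. The median log2 fold-change was −0.26 over the 7 members and −0.24 without *Ctnnb1*, against −0.01 over all genes. The 25th and 75th percentiles of all genes were −0.24 and 0.21, and *Jup* and *Ctnna1* lay between them. *Ctnnd1* and *Ctnnal1* lay just outside, and *Ctnnd2* lay inside the 5th percentile, −0.68. The share of all genes with a lower log2 fold-change was 0.0993% for *Ctnnb1*, 0.237% for *Ctnna2*, 7.14% for *Ctnnd2*, 22.8% for *Ctnnd1*, 26.7% for *Jup*, 38.3% for *Ctnna1* and 77.7% for *Ctnnal1*. These shares describe 2 libraries and are not p-values.

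**Figure D3:**
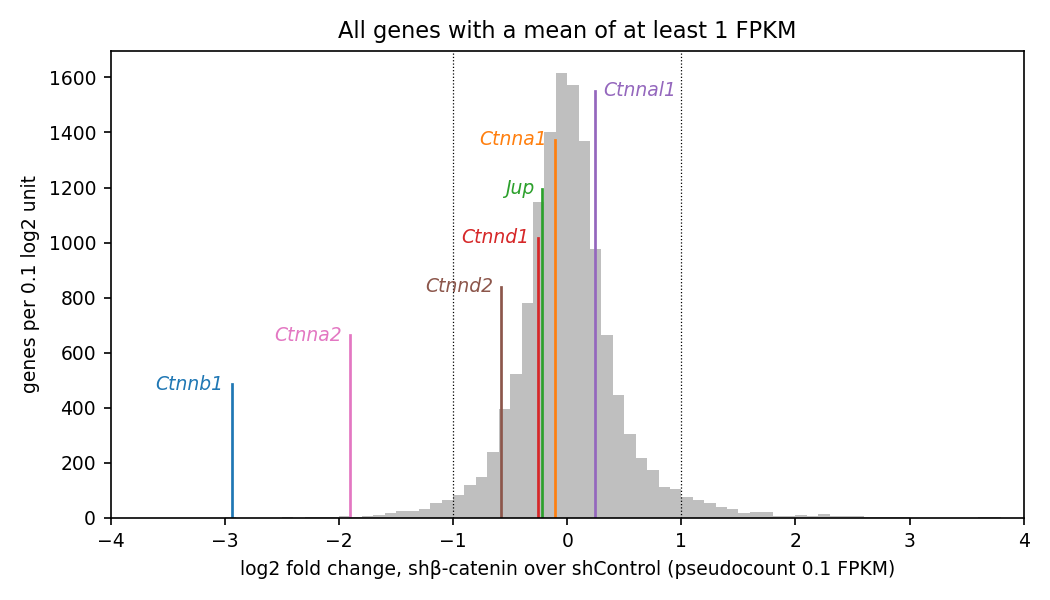
Number of genes in each interval of 0.1 log2 unit of fold-change (*shβ-catenin* over *shControl*, pseudocount 0.1 FPKM), for the 13097 genes averaging 1 FPKM or more, of which 28 beyond 4 log2 units are not drawn. Colored lines mark the 7 members that passed this filter, their height has no meaning, and dotted lines mark 2-fold; *Ctnnb1* (−2.94) and *Ctnna2* (−1.90) lie outside them.

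The proteins that catenins bind in junctions were examined next, beginning with cadherins. Of 8 cadherins, 4 averaged 1 FPKM or more. In *shβ-catenin* cells 2 of them were listed higher and the other 2 lower (median 0.08 on the log2 scale). Of all genes past the filter 51.3% were lower, 2.05% by more than 2-fold, and the median was −0.01. *Cdh13*, a cadherin held by a lipid anchor that lacks the catenin-binding tail, was the only one past 2-fold, at 35.1 FPKM in *shβ-catenin* and 73.8 FPKM in *shControl* cells. *Cdh11* had the highest mean, at 122 FPKM in *shβ-catenin* and 170.5 FPKM in *shControl* cells, and *Cdh2* (N-cadherin) was listed at 163 FPKM in *shβ-catenin* and 94.9 FPKM in *shControl* cells. *Cdh2* was named, and the next sum formed, after the values were seen. The 7 cadherins without *Cdh13* summed to 303 FPKM in *shβ-catenin* and 276 FPKM in *shControl* cells. Per FPKM of these cadherins, *Ctnnb1* was listed at 0.228 in *shβ-catenin* and 1.92 in *shControl* cells, *Ctnnb1* plus *Jup* at 0.535 and 2.31, *Ctnna1* at 0.341 and 0.402, and *Ctnnd1* at 0.1004 and 0.132. *Ctnnb1* RNA thus exceeded the cadherin sum in *shControl* cells only, while *Ctnna1* and *Ctnnd1* were below it in both libraries.

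The other junction partners that passed the filter stayed within 2-fold. Their counts stand beside all genes past the filter, of which 51.3% were lower, with a median of −0.01. The armadillo relatives of δ-catenins, *Arvcf* and the plakophilins, had 4 of 5 genes above the filter. All 4 were lower, but by small amounts, from −0.29 to −0.01 with a median of −0.04. *Pkp2*, the highest, was listed at 20.3 FPKM in *shβ-catenin* and 20.5 FPKM in *shControl* cells. Of 16 actin linkers, nectins and junctional GTPases, 14 passed the filter, 4 higher and 10 lower (median −0.10). *Rhoa*, a GTPase of actin contraction, had the highest mean, at 382 FPKM in *shβ-catenin* and 416 FPKM in *shControl* cells. Of 9 desmosomal genes, which plakoglobin serves, 5 passed, 3 higher and 2 lower (median 0.06), and *Perp*, a membrane protein of desmosomes, was listed at 77.5 FPKM in *shβ-catenin* and 105 FPKM in *shControl* cells.

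Partners of β-catenin in Wnt signaling that passed the filter also stayed within 2-fold. Again 51.3% of all genes past the filter were lower, with a median of −0.01. Of 10 genes of the destruction complex all passed the filter, 3 higher and 7 lower (median −0.04), and the kinase gene *Csnk1a1* was listed at 67.2 FPKM in *shβ-catenin* and 73.4 FPKM in *shControl* cells. Of 12 nuclear partners 10 passed, 8 higher and 2 lower (median 0.12). *Cby1*, an antagonist that binds β-catenin, was highest, at 26.8 FPKM in *shβ-catenin* and 24.8 FPKM in *shControl* cells, and *Lef1* was listed at 0 in both libraries.

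Genes often named as targets of β-catenin and TCF factors were mixed. Of 19 such genes 13 passed, among them 5 listed higher and 8 lower (median −0.43). By more than 2-fold 1 was higher and 1 lower, against 3.27% and 2.05% of all genes. Of all genes 51.3% were lower by any amount (median −0.01). *Ccnd1* was listed at 141 FPKM in *shβ-catenin* and 285 FPKM in *shControl* cells, a log2 fold-change of −1.01 that was within 2-fold (−0.98) when the libraries were scaled to their upper quartiles. *Notum*, which encodes a secreted inhibitor of Wnt ligands, was listed higher, at 15.9 FPKM in *shβ-catenin* and 5.90 FPKM in *shControl* cells (1.41). *Axin2*, a common readout of the pathway, was listed at 2.89 FPKM in *shβ-catenin* and 3.60 FPKM in *shControl* cells, and was named after its value was seen. *Axin2* also belongs to the destruction complex list and counts among the lower genes of both lists.

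**Figure D4:**
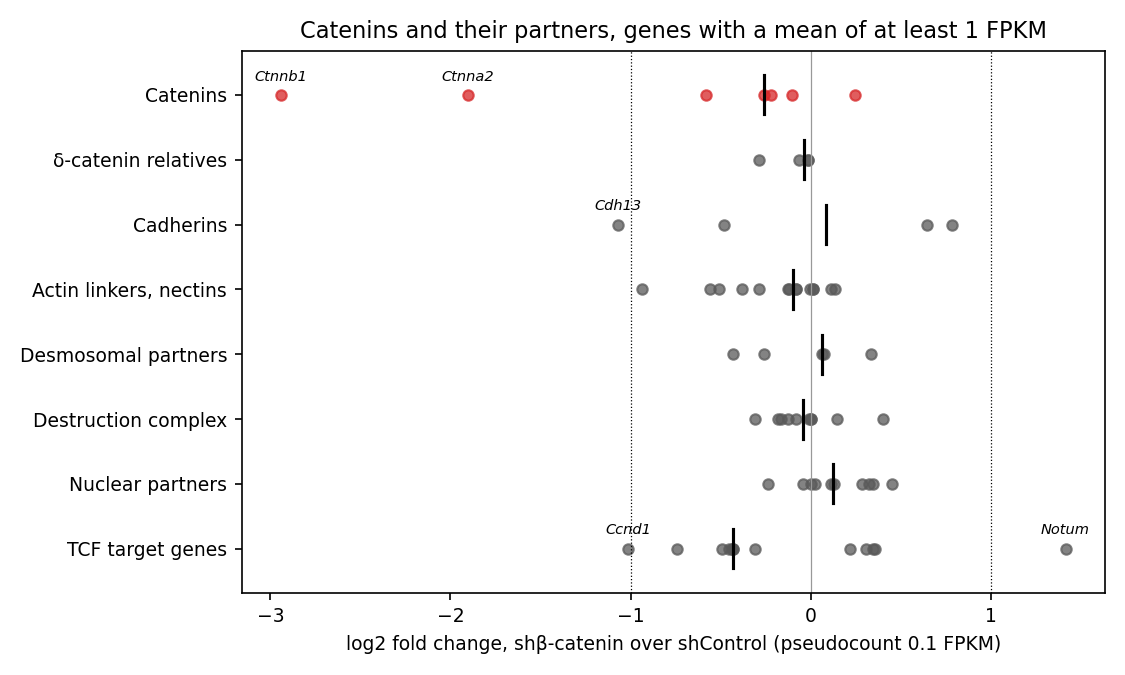
Log2 fold-change (*shβ-catenin* over *shControl*, pseudocount 0.1 FPKM) of each gene averaging 1 FPKM or more, for the catenins (red) and 7 partner or target lists (gray), with the median of each list as a black bar and 2-fold as dotted lines. The genes past 2-fold are named; with upper quartile scaling *Ccnd1* (−0.98) is within it.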

How the data were processed

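The authors prepared stranded mRNA libraries, sequenced them as read pairs and deposited FPKM values from Cufflinks 2.2.1. Mapping to the NMR genome used SAMtools 0.1.19, Bowtie2 2.2.3 and TopHat 2.0.13. The gene annotation, any filter and the depth are not given in the sources used here. FPKM sums were 591905 (*shβ-catenin*) and 609786 (*shControl*), with 20648 and 20198 genes above 0, and mitochondrially encoded genes took 7.38% and 9.26% of them. FPKM were used as deposited, in Python 3.11.15 (matplotlib 3.10.9, scipy 1.17.1, pandas 2.3.3, numpy 2.4.6), and the scripts were tested on simulated data.

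Every member is named. Of each partner list, genes past 2-fold (at most 3) and the highest by mean are named, as are the 3 genes nearest to *Ctnnb1*. The members and lists were chosen with earlier results of these data known. Alternatives were the pseudocount, the filter, the scaling between libraries and entries sharing a symbol. All 8 members matched a single entry.

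For low genes, whole fragments were sought that give the FPKM ratio within 0.002% at the relative depth of the libraries (1.202), up to a total of 60.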

Additional observations from a re-analysis of the deposited data

How the results depend on the processing

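Of 55 values of single genes under 5 alternatives (pseudocounts of 0.01 and 1, and 3 scalings), 50 kept their direction and their side of 2-fold and 4-fold. The exceptions were *Ctnna2*, past 4-fold with a pseudocount of 0.01, *Ccnd1* with upper quartile scaling, and *Ctnna3*, whose sign turned under each scaling. The scalings shifted log2 fold-changes by 0.01, 0.04 and 0.01, and *Ctnnb1* lay between −2.94 and −2.90 throughout. With a pseudocount of 0.01, 2 members were past 4-fold lower. With the filter at a mean of 5 FPKM, 1 member was past 2-fold lower, since *Ctnna2* was then not counted. Without *Ctnnb1* the log2 ratio of the catenin sum was −0.17, against −1.37. Counts of all genes past 2-fold, higher and lower, were 236 and 145 with a pseudocount of 1, 2013 and 1145 without the filter, and 134 and 117 with the filter at 5 FPKM, against 428 and 269. Those past 4-fold were 32 and 9, 409 and 197, and 24 and 6, against 89 and 27. Without the filter the median was 0.24 for cadherins and −0.31 for target genes, and at 5 FPKM it was −0.26 for desmosomal genes. The causes were not tested. No whole fragments gave the ratios of *Ctnna3* or *Ctnna2*, so no counting interval could be given for these members, and multiples of fragments were not run for them. With 1 library per condition no library could be left out.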

Other observations

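Genes that overlap catenin genes were looked up in the order of the RefSeq table of the assembly H.glaber_assembly_v1.0, which is not the build the authors mapped to, and were chosen after the values were seen. That table names no scaffold, so an overlap was read from the spans of genes listed next to each other. Each of the 3 α-catenin genes holds a gene of the LRRTM family, synaptic adhesion proteins, within its span. *Lrrtm1*, within *Ctnna2*, was listed at 0.615 FPKM in *shβ-catenin* and 0.0853 FPKM in *shControl* cells, the opposite direction to its host. Its ratio of 7.21 is that of 6 fragments to 1 at the relative depth of the libraries, and the exact Clopper-Pearson 95% interval at these numbers, 0.875 to 332, includes a ratio of 1. At 12 and 2 fragments, which give the same ratio, it ran from 1.61 to 66.4. The interval covers counting error only. *Lrrtm3*, within *Ctnna3*, was listed at 0.0999 FPKM in *shβ-catenin* and 0.332 FPKM in *shControl* cells, and *Lrrtm2*, within *Ctnna1*, at 0 in both libraries. *Hspa9*, a mitochondrial chaperone gene within the span of *Ctnna1*, was listed at 98.6 FPKM in *shβ-catenin* and 142 FPKM in *shControl* cells, and *Ulk4*, which overlaps the end of *Ctnnb1*, at 4.53 and 5.17 FPKM in the same order. Whether counting used strand is not given in the sources used here, so reads in the overlaps cannot be assigned.

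*Ctnnbl1*, a splicing factor gene with a catenin-like name that is not a junction catenin, was listed at 25.2 FPKM in *shβ-catenin* and 25.6 FPKM in *shControl* cells.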
